A study of Bos taurus with 12 samples.

Results

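The zona pellucida glycoprotein genes ZP2, ZP3 and ZP4 were followed across 12 arrays of cattle oocytes. They were taken as every probe set whose platform annotation gave one of these 3 symbols alone, which found 1 probe set for each gene, 3 of 24016 non-control probe sets. All 3 lay above the filter on low signal that kept 14409 probe sets for testing. The donors were Japanese Black cattle, 50 oocytes were pooled for an array, and 4 groups had 3 arrays each. Adult cows gave ovaries at an abattoir, and prepubertal heifers aged 9 to 12 months on farms had theirs removed with a spay device. Oocytes came from follicles of 2 to 8 mm in both. The germinal vesicle (GV) groups held immature oocytes taken straight after aspiration, before meiosis resumes. The metaphase II (MII) groups held oocytes that had been matured in culture for 20 to 22 h and had put out a polar body. Cumulus cells were stripped from all pools with hyaluronidase, and the RNA of all groups was amplified before labelling. The 3 pools of a group are called biological replicates, and no source used here names the animals or days that went into a pool, so every p-value measures the spread between these pools. Because an array reads a pool, fewer oocytes and less of a transcript per oocyte cannot be told apart.

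The zona pellucida is the extracellular coat that the oocyte secretes around itself while it grows in the follicle. Its glycoproteins share a polymerization module, the ZP domain, through which they assemble into filaments after a furin-type protease has released them from a membrane anchor. In cattle the coat is built from ZP2, ZP3 and ZP4, and the gene for ZP1 is a pseudogene. ZP3 is the partner every filament needs, ZP2 is cut by the cortical granule protease ovastacin (ASTL) after fertilization, which hardens the coat against further sperm, and ZP4 is a structural subunit that takes part in sperm binding in cattle and pig. The genes are transcribed almost only in oocytes, under the factor FIGLA, which binds E-boxes in their promoters as a dimer with E proteins such as TCF3 and TCF12. In the mouse the zona transcripts build up during oocyte growth and decline by ovulation. Nucleotide and protein sequences of the members were not used here.

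The oocyte label of the arrays was checked first, with genes other than the zona genes. Of 17 listed oocyte genes, 7 were measured on the array: GDF9, BMP15, NLRP5, KIT, KPNA7, OOEP and MOS. Their median stood 6.06 to 8.70 log2 units above the array's own median on 9 arrays. On the other 3 it stood at -0.35 (prepubertal GV replicate 1), 0.70 (prepubertal MII replicate 1) and 0.89 (adult GV replicate 1), so on these the defining markers of the labelled cell were near the middle of the array. The results are therefore given over 12 arrays and again without these 3, over the 9 arrays with an oocyte profile. The division used no zona gene. Over the 9 arrays each group has 2 arrays except adult MII, which has 3. Summed linear signal of the 21 measured of 25 cumulus and granulosa markers was 10306 to 185240 in prepubertal GV, 8952 to 301915 in prepubertal MII, 10908 to 18203 in adult GV and 8421 to 27104 in adult MII. The highest sum in each prepubertal group was replicate 1, whereas adult GV replicate 1 had the lowest sum of its group. That order rests on STAR, a steroid synthesis gene with a signal of 4.91 there against 12.30 and 13.58 on adult GV replicates 2 and 3. Without STAR, left out after its values were seen, the adult GV sums were 10878, 9835 and 5927, highest in replicate 1. That array also had the highest median of all arrays, 8.30. Against the array's own median, the list median without STAR was 0.01, -0.24 and -1.84 on adult GV replicates 1, 2 and 3. Larger sums without STAR came from arrays with an oocyte profile, 11515 on prepubertal MII replicate 3 and 23407 on adult MII replicate 3. The 12 theca and stroma markers summed to 860 to 12061, 1026 to 9063, 1766 to 6740 and 455 to 1528 in the same order of groups, again highest in replicate 1 of prepubertal GV, prepubertal MII and adult GV. The 8 measured of 10 blood and endothelium markers summed to 295 to 1081, 360 to 645, 329 to 2169 and 254 to 609. No marker was at 0 except LUM, a stromal proteoglycan, on adult MII replicate 1. The part of these cells in the zona results was not tested.

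ZP2 gave log2 signals of 10.05, 14.68 and 15.82 in adult GV oocytes and of 4.99, 14.41 and 15.33 in prepubertal GV oocytes, in the order of replicates 1, 2 and 3. At MII it read 13.90, 14.01 and 14.06 in adults and 7.98, 14.20 and 13.96 in prepubertal heifers. Replicate 1 was low in both GV groups and in prepubertal MII, and adult MII was the one group without a low array. Over 12 arrays all 4 groups overlapped. On the 9 arrays ZP2 averaged 14.49 (SD 0.67) and ranked between percentiles 98.7 and 99.9 of the signals on its array, a place that also depends on the probes. There every GV array read higher than every MII array.

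ZP3 gave 8.95, 12.95 and 12.96 in adult GV oocytes and 7.28, 10.09 and 13.02 in prepubertal GV oocytes. At MII it read 11.13, 11.45 and 11.88 in adults and 3.02, 13.14 and 11.65 in prepubertal heifers. Besides the 3 low replicates, prepubertal GV replicate 2 was low at 10.09, an array with an oocyte profile by the other genes. The 9-array mean was 12.03 with an SD of 1.06, wider than that of ZP2 or ZP4, between percentiles 87.5 and 98.4.

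ZP4 gave 5.00, 12.58 and 13.74 in adult GV oocytes and 4.57, 13.01 and 13.97 in prepubertal GV oocytes. At MII it read 12.76, 12.68 and 12.13 in adults and 6.22, 13.06 and 12.55 in prepubertal heifers. Apart from replicate 1 of 3 groups, its values lay within 2 log2 units of each other, with a mean of 12.94 (SD 0.59, n = 9) between percentiles 95.1 and 99.0. GV and MII ranges overlapped in the 9 arrays at each age.

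**Figure D1:**
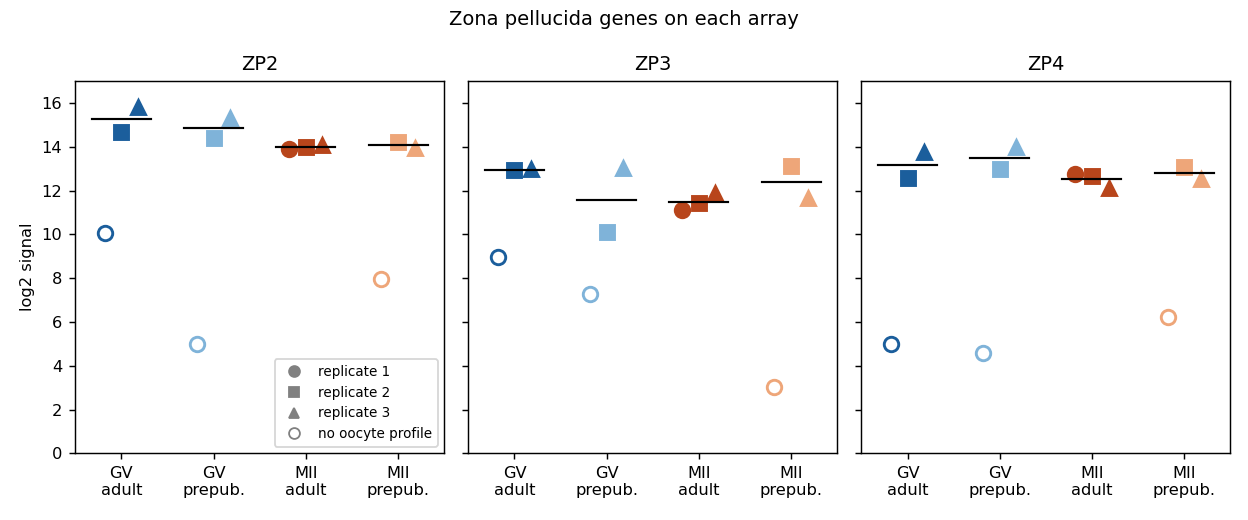
Log2 signal (y axis) of ZP2, ZP3 and ZP4 in every array by group (x axis), with open points for the 3 arrays without an oocyte profile and filled points for the other 9, whose mean in each group is drawn as a line. Marker shape gives the replicate. The open points lie under all filled points of the same gene, for ZP2 at 4.99, 7.98 and 10.05 against 13.90 to 15.82.

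The 3 arrays without an oocyte profile held the lowest signals of all 3 zona genes. On prepubertal GV replicate 1 the genes stood at percentile 17.8 (ZP2), 42.8 (ZP3) and 13.7 (ZP4) of the array, all under its median. On adult GV replicate 1 ZP2 and ZP3 stood above the median, at percentiles 83.8 and 60.3, and ZP4 at 6.52. On prepubertal MII replicate 1 ZP2 alone stood above the median, at percentile 69.1, with ZP3 at 16.2 and ZP4 at 44.8. Signals under the median may lie at background, for which no detection call was used, so no fold is given for these arrays and the genes are not ranked by how low they were.

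**Figure D2:**
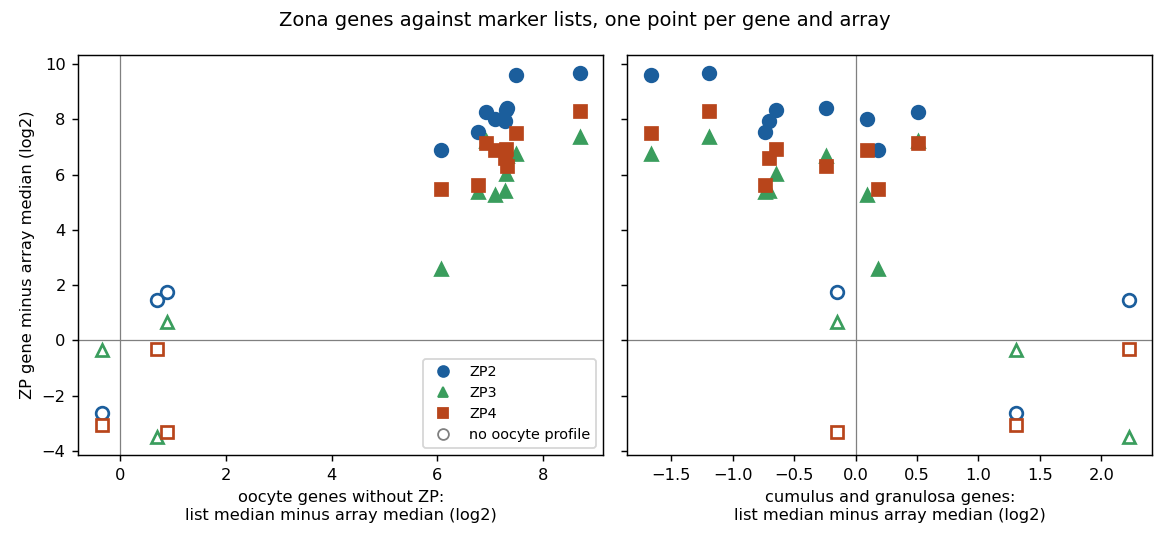
Log2 signal of ZP2 (circles), ZP3 (triangles) and ZP4 (squares) minus the array's median (y axis), against the median of the 7 other oocyte genes (left) or of the cumulus and granulosa markers (right) minus the array's median (x axes, log2 units), 1 point per gene and array. On the left, open points of the 3 arrays without an oocyte profile lie at -3.50 to 1.75 and filled points of the other 9 at 2.58 to 9.68, and on the right 1 of the open arrays lies among the filled ones along the x axis.

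In the comparison of MII with GV oocytes, ZP2 was lower at MII on the 9 arrays by more than its pool spread, but no zona gene passed the adjusted threshold. On the 9 arrays ZP2 averaged 15.06 (SD 0.64, n = 4) at GV and 14.03 (SD 0.11, n = 5) at MII. Its mean change over both ages was -1.02 log2 units (SE 0.31, 95% interval -1.68 to -0.37), 2.03-fold lower at MII. The limma test gave an adjusted p of 0.146, where 104 of all probe sets, 0.722%, were called. An unadjusted p under 0.05 was reached by 14.1% of probe sets, and 3.04% had a smaller p than ZP2. The exact two-sided permutation test of stage within age gave p = 0.0167, the smallest that its 60 relabelings allow. After Benjamini-Hochberg adjustment over the 3 zona genes this exact p was 0.05, not under the threshold of 0.05. With same-numbered prepubertal pools treated as pairs, which the labels do not state, the exact permutation p was 0.025, the smallest that 40 relabelings allow. With any 1 of the 9 arrays left out the change ran from -1.31 to -0.74, and 3.53% of all probe sets shared its pattern of every MII array below every GV array at both ages. With arrays centred on their medians in place of the deposited scaling, the change was -0.57 (SE 0.57, adjusted p = 0.711). That centring placed the median of all probe sets at 0.38, against -0.07 with the deposited scaling. With the deposited scaling, the 7 other oocyte genes had a median change of -0.46 on the 9 arrays. Among them 4 fell and 3 rose, and 3 reached an unadjusted p under 0.05, so a fall was not particular to ZP2. KIT also separated the stages, with 14.52 to 15.07 at GV and 12.86 to 13.83 at MII. KPNA7 separated them the other way, with 13.81 to 14.86 at GV and 15.25 to 16.9 at MII.

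By age, the ZP2 change on the 9 arrays was -1.26 in adults (SE 0.41, interval -2.14 to -0.38, adjusted p = 0.238), a comparison with 0.118% of probe sets called and 11.4% at an unadjusted p under 0.05, ZP2 among them. ZP2 and ZP3 were lower in every adult MII array than in either adult GV array, as were 13.1% of all probe sets. In prepubertal heifers the ZP2 change was -0.79 (SE 0.45, interval -1.76 to 0.17, adjusted p = 0.761), and 0% of probe sets were called, with 6.99% at an unadjusted p under 0.05. There 20.8% of probe sets had both MII arrays below both GV arrays, ZP2 alone among the members. After median centring the prepubertal ZP2 value was 0.0085 (SE 0.84). The difference between the ages in ZP2 was 0.46 (SE 0.61, adjusted p = 0.999).

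ZP4 was also lower at MII on the 9 arrays, by less than its spread allowed to call. It averaged 13.32 (SD 0.64, n = 4) at GV and 12.64 (SD 0.34, n = 5) at MII. The mean change was -0.66 (SE 0.41, interval -1.54 to 0.22, adjusted p = 0.503), with -0.64 in adults and -0.68 in prepubertal heifers. With median centring the mean was -0.21 (SE 0.69) and the prepubertal value turned to 0.12 (SE 1.02). The exact permutation test gave p = 0.15, and 0.225 with the prepubertal pairs kept. Without adult GV replicate 3 the change was -0.37, and without adult GV replicate 2 it was -0.95.

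ZP3 had no common direction at the 2 ages. Its change was -1.47 in adults (SE 0.81, interval -3.20 to 0.27, adjusted p = 0.537) and 0.84 in prepubertal heifers (SE 0.89, interval -1.06 to 2.74, adjusted p = 0.888). The difference between these changes was 2.30 (SE 1.2, interval -0.27 to 4.88, adjusted p = 0.999), in a comparison that called 0% of probe sets, with 3.06% at an unadjusted p under 0.05. The low prepubertal GV replicate 2 (10.09) and the high prepubertal MII replicate 2 (13.14) set the prepubertal value, since replicate 3 alone went from 13.02 to 11.65. Averaged over ages the change was -0.32 (SE 0.60, exact permutation p = 0.767). It was 0.42 without prepubertal GV replicate 3 and -1.05 without prepubertal GV replicate 2.

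Over all 12 arrays none of these differences was larger than the spread. The mean maturation changes were 0.47 for ZP2 (SE 1.57), -0.50 for ZP3 (SE 1.41) and 1.09 for ZP4 (SE 1.64), with adjusted p of 0.919, 0.905 and 0.810 and exact permutation p of 0.79, 0.805 and 0.74. No member and 0% of all probe sets were called by limma in any of the 7 comparisons, and no member reached an unadjusted p under 0.05 in any of them, against 10.7% of probe sets in mean maturation. The other shares at that threshold were 7.93% for adult maturation, 3.41% for prepubertal maturation, 1.21% for the interaction, 2.51% and 2.66% for age at GV and MII and 3.99% for mean age. Single arrays set the sign: the ZP2 change was -1.17 without prepubertal GV replicate 1, -0.39 without adult GV replicate 1, -0.07 without prepubertal MII replicate 2 and 1.49 without prepubertal MII replicate 1. No zona gene separated the stages at either age over 12 arrays, where 7.19% of probe sets had every adult MII array and 6.05% every prepubertal MII array below all GV arrays.

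**Figure D3:**
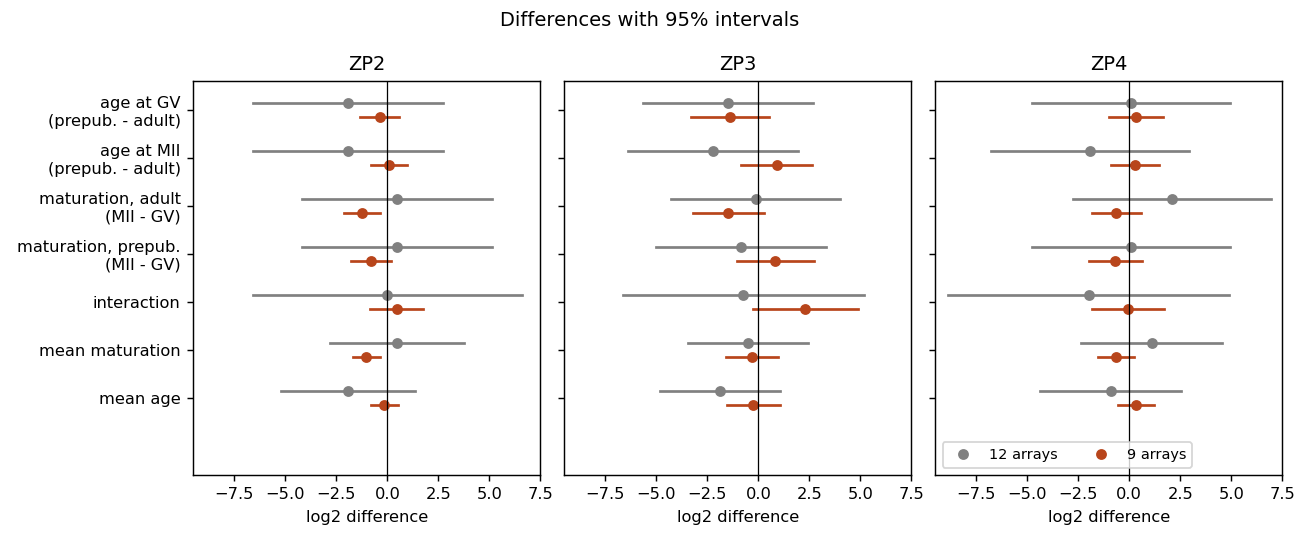
Log2 differences (x axis) of ZP2, ZP3 and ZP4 in the 7 comparisons (y axis), with 95% intervals, over 12 arrays in grey and over 9 arrays in red. The intervals exclude 0 for ZP2 alone, in adult maturation (-2.14 to -0.38) and in mean maturation (-1.68 to -0.37) over the 9 arrays.

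The GV arrays carry a second label. At both ages a letter b, which no source used here explains, stands in the titles of replicates 1 and 2 of the GV stage and in no MII title. Among the 9 arrays, the GV pools without the letter were the 2 highest for ZP2 and for ZP4. Each GV pool was subtracted from the MII mean of its age, so a negative value is a lower MII mean. By this measure adult ZP2 read -0.69 with the letter and -1.83 without it. The prepubertal ZP2 values were -0.33 with it and -1.25 without. ZP4 read -0.06 with the letter and -1.22 without in adults, and -0.20 with and -1.16 without in prepubertal heifers. ZP2 thus stood lower at MII in each of its 4 comparisons, and the size was larger for the GV pools without the letter. ZP3 had no such pattern. In adults ZP3 read -1.46 with the letter and -1.47 without, and in prepubertal heifers 2.30 with and -0.63 without. With the letter as a covariate over 12 arrays, the mean maturation change was -2.56 for ZP2 (SE 2.05, adjusted p = 0.879), -2.61 for ZP3 (SE 1.93, adjusted p = 0.849) and -2.29 for ZP4 (SE 2.12, adjusted p = 0.901). The sign had thus turned from 0.47 for ZP2 and from 1.09 for ZP4, and no value was larger than the spread. As no MII title carries the letter, the mean in this fit sets the MII pools against GV replicate 3 of each age alone. Replicate 1 of both GV groups carries the letter and lacks an oocyte profile. The MII side still holds prepubertal MII replicate 1, also without that profile. An effect of the letter was not tested apart from these arrays.

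Donor age gave no called difference for any zona gene, and the calls in all age comparisons were 0% of probe sets over 12 and over 9 arrays. On the 9 arrays, prepubertal minus adult ZP2 was -0.38 at GV (interval -1.34 to 0.59) and 0.09 at MII (interval -0.79 to 0.97). For ZP4 the values were 0.33 at GV (interval -0.97 to 1.63) and 0.28 at MII (interval -0.91 to 1.47). ZP3 read -1.40 at GV (interval -3.30 to 0.50) and 0.90 at MII (interval -0.83 to 2.64). At an unadjusted p under 0.05, where no member lay, were 4.64% of probe sets for age at GV, 2.56% at MII and 3.61% for mean age. The intervals were narrowest for ZP2 and widest for ZP3, and at GV even the ZP2 interval holds differences of more than 1 log2 unit.

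Over 12 arrays the prepubertal means were lower in both stages for ZP2 and ZP3. Both prepubertal groups and adult GV hold 1 array each without an oocyte profile, and adult MII holds none. ZP2 differed by -1.94 at GV and by -1.94 at MII (SE 2.22 each), and ZP3 by -1.49 and -2.22 (SE 1.99 each). ZP4 read 0.08 at GV and -1.91 at MII (SE 2.32 each). Averaged over stages the differences were -1.94, -1.86 and -0.92, with adjusted p of 0.998 each. On the 9 arrays the same averages were -0.14, -0.25 and 0.30.

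Within an array, the log2 difference between genes does not depend on the array's scaling, and its change between stages shows whether they moved unequally. Each zona gene was set against each other and against the mean of the oocyte growth factors GDF9 and BMP15, secreted signals to the surrounding granulosa cells, in 6 ratios. On the 9 arrays ZP2 minus the growth factors read 0.77 and 1.67 in adult GV, 0.52 and 0.80 in prepubertal GV, -0.12, -0.05 and 0.30 in adult MII and 0.24 and 0.57 in prepubertal MII. The stages overlapped by a small margin, between 0.52 and 0.57. The mean change was -0.72, with an exact permutation p of 0.0333 and 0.2 after Benjamini-Hochberg adjustment over the 6 ratios. With the prepubertal pairs kept these were 0.025 and 0.15, again from an exact permutation test. By age the change was -1.18 in adults and -0.25 in prepubertal heifers. The 2 reference genes did not move alike: GDF9 averaged 13.59 at GV and 12.90 at MII, and BMP15 14.64 and 14.78. The median of the oocyte list also fell, from 13.58 to 14.35 on the GV arrays to 12.86 to 13.34 at MII. A ratio to that median was tested over 12 arrays alone. ZP4 minus the growth factors had a change of -0.35 (exact p = 0.0833), ZP2 minus ZP4 one of -0.37 (exact p = 0.1) and ZP3 minus the growth factors one of -0.01 (exact p = 1.0). ZP2 minus ZP3 had a change of -0.71 (exact p = 0.45) and ZP3 minus ZP4 one of 0.34 (exact p = 0.717), so no ratio passed the adjusted threshold. Over 12 arrays the exact p ran from 0.185 to 0.825, with zona signals under the array's median in some of these ratios.

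**Figure D4:**
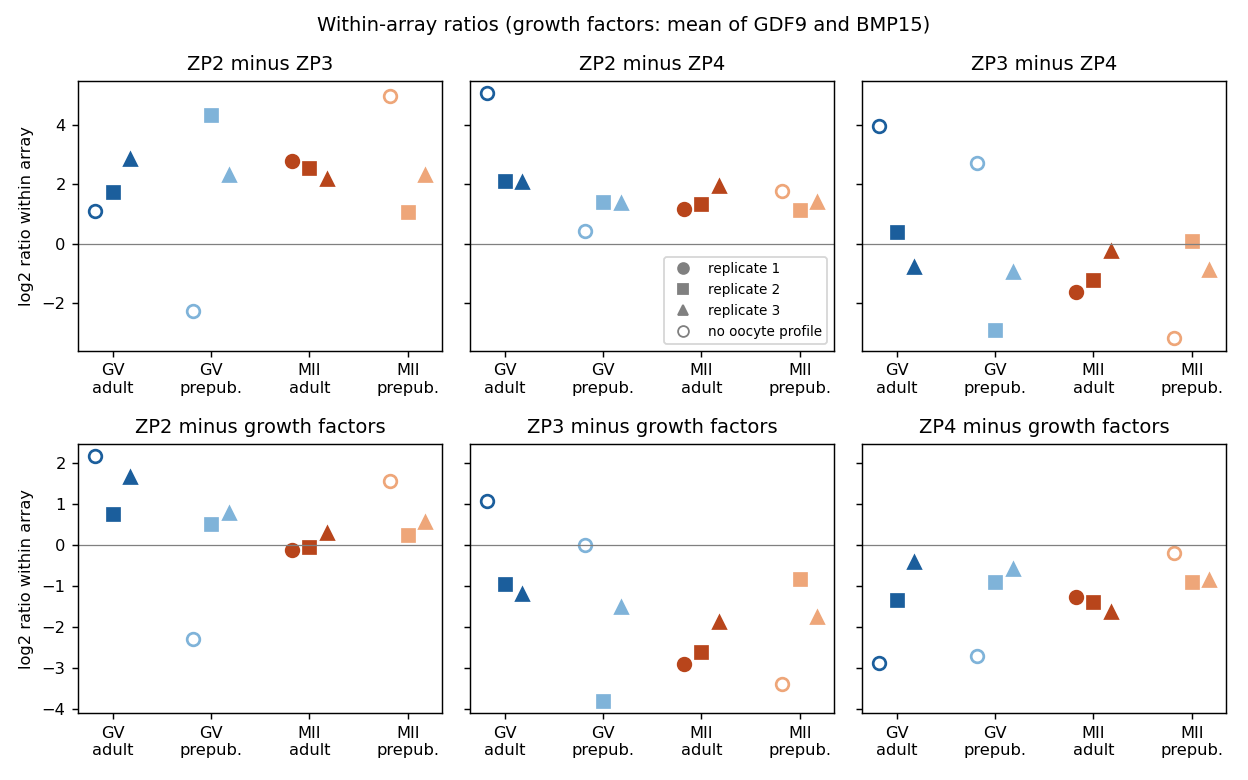
Within-array log2 differences (y axis) of the zona genes from each other and from the mean of GDF9 and BMP15, by group (x axis), with open points for the 3 arrays without an oocyte profile. Among filled points ZP2 minus the growth factors lies at 0.52 to 1.67 at GV and at -0.12 to 0.57 at MII, and the other panels overlap more widely.

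Across the 9 arrays, whose points share 4 groups and the stage difference, the zona genes varied together to unequal degrees. ZP2 and ZP4 had a Pearson r of 0.82 (exact permutation p = 0.0121, 0.0363 after adjustment over 3 pairs) and a Spearman rho of 0.60 (exact permutation p = 0.0968, adjusted 0.181). Without the arrays farthest from the median of ZP2, GV replicate 3 of both ages, r was 0.21, so the relation rests on those arrays. ZP2 and ZP3 had r = 0.55 (exact p = 0.133, adjusted 0.199) and rho = 0.57 (exact p = 0.121, adjusted 0.181), and r was 0.26 without the same arrays. ZP3 and ZP4 had r = 0.41 (exact p = 0.277) and rho = 0.42 (exact p = 0.270), the adjusted values being the same, and r was 0.62 without replicate 2 of both prepubertal groups. Within a stage there were 4 or 5 arrays, too few for a correlation.

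Genes of like pattern were ranked by Pearson correlation of log2 signal among 6732 genes, as a description. Over 12 arrays the low arrays dominate this measure. ZP2 was closest to ALG13, DDX25, CCNB1, SKA1 and RPGRIP1, with r from 0.97 to 0.98. CCNB1 encodes cyclin B1 and SKA1 a kinetochore protein, and DDX25 is an RNA helicase known from germ cells. ZP4 ranked 12th for ZP2 and ZP3 177th. For ZP3 the leading genes were SOSTDC1, PDE6C, HMMR, SGO1 and NAE1, among which SGO1 protects centromeric cohesion in meiosis. For ZP4 they were CDO1, RAD17, CKS1B, NUDT4 and TMEM60, with BMP15 in the sixth place at r = 0.98.

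Over the 9 arrays the leading genes were others. ZP2 was closest to CTNNBL1 (r = 0.96), CEP43, FAM204A, PRMT5 and POLR2L. CTNNBL1, a splicing-associated protein, read 9.27 to 11.23 in the 4 GV arrays and 7.56 to 8.20 in the 5 MII arrays, separated by stage as ZP2 was. ZP4 held rank 78 for ZP2, GDF9 rank 375 and BMP15 rank 4393 (r = -0.19). ZP3 was closest to NDC80 (r = 0.94), a kinetochore protein, then PDZD11, UNC50, BPHL and DNAJC17, and ZP4 to TSPAN5 (r = 0.93), COX7A2, LSM8, POP7 and AP3S2. BMP15 thus followed ZP4 over 12 arrays and had r = -0.19 with it over 9.

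The genes that regulate, process and meet the zona proteins were followed as 5 lists, in mean maturation over 12 arrays, where 0 members were called in any list. The median over all 6842 genes tested was -0.15, with 3086 higher and 3756 lower at MII. Over the 9 arrays it was -0.13, with 3155 higher and 3687 lower. Of 12 transcription regulators 4 were measured, with a median of 1.40, 3 higher and 1 lower at MII, and 1.90 over the 9 arrays, all 4 higher. On the 9 arrays all 4 were higher in adults, but in prepubertal heifers 2 were higher and 2 lower, with a median of 0.19. TCF12 and GATA4 lay under the filter level of 5.57 on GV replicate 3 of both ages. FIGLA was not analysed here. TCF4, an E protein, read 8.70, 7.57 and 10.92 in adult GV, 6.41, 5.34 and 6.07 in prepubertal GV, 10.50, 10.09 and 9.89 in adult MII and 7.64, 9.20 and 10.33 in prepubertal MII. Every prepubertal MII array lay above every prepubertal GV array, as for 3.66% of all probe sets, and the adult stages overlapped. On prepubertal GV replicate 2 TCF4 (5.34) lay under the filter level of 5.57. The mean change was 2.11 (SE 0.84, adjusted p = 0.411) over 12 arrays and 2.49 (SE 0.87, adjusted p = 0.207) over 9. TCF3, which encodes the E proteins E12 and E47, had a mean change of 1.93 (SE 0.99, adjusted p = 0.485), with 4.47 in adults and -0.61 in prepubertal heifers. It read 6.79, 2.52 and 9.80 in adult GV and 10.45, 10.20 and 11.88 in adult MII. The adult change thus rests on adult GV replicate 2, under the filter level, and on replicate 1, without an oocyte profile. TCF12 (0.88, SE 1.56) and GATA4 (-0.03, SE 1.21) had adjusted p of 0.839 and 0.994, and GATA4 turned to 0.90 (SE 1.23) over the 9 arrays.

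For folding and glycosylation in the secretory pathway, 15 of 20 enzymes were measured and tested. Their median change was 0.81, with 12 higher and 3 lower at MII, and 0.57 over the 9 arrays, with 9 higher and 6 lower. MGAT1, which starts the conversion of N-glycans to complex forms, read 10.51, 8.20 and 5.48 in adult GV, 7.48, 8.56 and 4.95 in prepubertal GV, 2.08, 2.07 and 3.15 in adult MII and 3.41, 5.90 and 6.01 in prepubertal MII. Adult MII arrays all lay below the adult GV arrays, as for 7.19% of all probe sets, and the prepubertal stages overlapped. The gene passed the filter through its GV arrays, and with most MII signals under it no change is given. STT3A and DDOST, subunits of the oligosaccharyltransferase that attaches N-glycans, had a change of 2.16 (SE 0.92, adjusted p = 0.427) and 2.52 (SE 1.14, adjusted p = 0.442) over 12 arrays. The 9-array values were 1.25 (SE 0.61) and 2.06 (SE 1.32). DDOST read 4.81 to 7.34 on the GV arrays, against a filter level of 5.57. Its highest signal, 12.18, was on prepubertal MII replicate 1, and the lowest of STT3A, 5.24, on adult GV replicate 1. Both of these arrays lack an oocyte profile.

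Of 18 genes for zona cleavage and cortical granule release, 12 were measured and 8 tested. Their median change was -0.18, close to that of all genes, with 3 higher and 5 lower. SNAP23 and NAPA, parts of the membrane fusion machinery, had a change of -0.90 (SE 0.75) and -0.90 (SE 0.86), and the vesicle SNARE VAMP3 one of 0.87 (SE 0.999). Over the 9 arrays the list's median was 0.03, with 4 higher and 4 lower, and VAMP3 turned to -0.34 (SE 0.35), its lowest signal (8.39) being on adult GV replicate 1. Of 6 genes for sperm-egg membrane contact, 4 were measured, with a median of -0.32 and 3 lower over 12 arrays, and 0.12 with 2 lower over the 9. The egg tetraspanin CD9, needed for gamete fusion in the mouse, had a change of -0.48 (SE 0.95), with its highest signals, 14.31 and 13.91, on replicate 1 of prepubertal GV and prepubertal MII, where all zona genes were low. CD81 had a change of -0.45 (SE 1.02) and the integrin subunit ITGB1 one of 0.72 (SE 0.82).

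Other proteins with a ZP domain were the fifth list, in which 7 of 13 genes were measured and 3 tested, with a median change of -0.59, and -0.34 over the 9 arrays. TECTB, the tectorial membrane protein beta-tectorin of the inner ear, read 12.75 to 14.47 on the 9 arrays and 8.48, 7.97 and 5.57 on replicate 1 of prepubertal GV, adult GV and prepubertal MII. Its high and low arrays were thus those of ZP2, ZP3 and ZP4. Its maturation change was 0.05 (SE 1.38) over 12 arrays and -0.60 (SE 0.39, adjusted p = 0.524) over 9. ENG, a TGF-beta co-receptor, and DMBT1, a mucosal scavenger protein, had a change of -0.77 (SE 0.99) and -0.59 (SE 1.12) over 12 arrays.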

How the data were processed

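Pools of oocytes in 4 groups were read on 1 array each. The deposited values are log2 signals, for which the submitters' processing notes name MAS5 (version not given in the sources used here). The deposited linear values of every array average 500 once the lowest and highest 2% are trimmed, so arrays were not scaled again. The 112 controls were left out of 24128 probe sets, and those with a mean above the 40th percentile (5.57 log2 units) were tested, 14409 in all. Symbols came from the platform annotation. The 4 group means were fitted in 1 fit with limma 3.58.1 in R 4.3.3 (intensity trend, 8 residual degrees of freedom, 5 with 9 arrays), and p was adjusted by Benjamini and Hochberg over all tested probe sets, with a threshold of 0.05. The script was tested on simulated data. The exact permutation tests permuted stage within age (400 relabelings, smallest p 0.005, over 12 arrays). Arrays were counted as having an oocyte profile where the oocyte list's median exceeded the array's by 2 log2 units. Deviations from the group means of same-numbered GV and MII pools had correlations of 0.609, 0.149 and 0.306 in prepubertal heifers. In adults these were -0.105, 0.015 and -0.085. For prepubertal replicate 3 the best match had another number. Same-numbered prepubertal and adult GV pools, which come from different animals, had correlations of 0.383, -0.021 and 0.381. The labels name no pairs, so keeping prepubertal pairs is an assumption tried as an alternative, and pairing was not established. All members, lists and alternatives were chosen with earlier results of these data known, and leave-one-out over the 9 arrays, a replicate block across all groups, exact tests that keep the prepubertal pairs and a cumulus sum without STAR were added after seeing the data. Every zona gene is named. Of each list, up to 3 genes with the smallest p in mean maturation are named, all regulators, and the 5 genes most like each zona gene in pattern. The number of arrays limits the precision.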

Additional observations from a re-analysis of the deposited data

How the results depend on the processing

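No zona gene was called in any comparison under any alternative. Over 12 arrays the directions of the zona genes turned with single arrays and with scaling, so the number of arrays limits every value, and the cause was not tested. The median of all probe sets in mean maturation moved from -0.20 as deposited to 0.23 under quantile normalization and 0.64 under median centring, with 44.3%, 56.1% and 66.2% of probe sets higher at MII. Values that changed sign, and counts of calls that moved from 0, follow. Under quantile normalization ZP2 read 0.18 for interaction. ZP3 read 0.54 for adult maturation and 0.083 for mean maturation. Under median centring ZP2 read 0.12 for interaction. ZP3 read 0.65 for adult maturation, 0.045 for prepubertal maturation and 0.35 for mean maturation. With a pseudocount of 32 ZP4 read -0.14 for prepubertal maturation. Over the 9 arrays ZP2 read 0.089 for age at MII, -1.26 for adult maturation, -0.79 for prepubertal maturation, 0.46 for interaction and -1.02 for mean maturation. ZP3 read 0.90 for age at MII, 0.84 for prepubertal maturation and 2.30 for interaction. ZP4 read 0.28 for age at MII, -0.64 for adult maturation, -0.68 for prepubertal maturation, -0.66 for mean maturation and 0.30 for mean age. Probe sets called were 17 for adult maturation and 104 for mean maturation. The maturation change of the ratios was -0.71 for ZP2 minus ZP3, 0.34 for ZP3 minus ZP4 and -0.35 for ZP4 minus growth factors. Over 8 arrays (also without adult MII replicate 3) ZP2 read 0.12 for age at MII, -1.29 for adult maturation, -0.79 for prepubertal maturation, 0.50 for interaction and -1.04 for mean maturation. ZP3 read 1.10 for age at MII, 0.84 for prepubertal maturation and 2.50 for interaction. ZP4 read 0.088 for age at MII, -0.44 for adult maturation, -0.68 for prepubertal maturation, -0.56 for mean maturation and 0.21 for mean age. Probe sets called were 69 for adult maturation, 5 for prepubertal maturation and 315 for mean maturation. The maturation change of the ratios was -0.63 for ZP2 minus ZP3, 0.15 for ZP3 minus ZP4 and -0.30 for ZP4 minus growth factors. Over the 9 arrays with quantile normalization ZP2 read 0.0055 for age at GV, 0.18 for age at MII, -0.94 for adult maturation, -0.76 for prepubertal maturation, 0.18 for interaction, -0.85 for mean maturation and 0.094 for mean age. ZP3 read 1.01 for age at MII, 0.86 for prepubertal maturation and 2.23 for interaction. ZP4 read 0.29 for age at MII, -0.46 for adult maturation, -0.67 for prepubertal maturation, -0.57 for mean maturation and 0.39 for mean age. Probe sets called were 16 for adult maturation and 156 for mean maturation. Over the 9 arrays with median centring ZP2 read 0.46 for age at MII, -1.16 for adult maturation, 1.16 for interaction and -0.57 for mean maturation. ZP3 read 1.28 for age at MII, 1.64 for prepubertal maturation, 3.004 for interaction and 0.14 for mean maturation. ZP4 read -0.0008 for age at GV, 0.65 for age at MII, -0.53 for adult maturation, 0.65 for interaction, -0.21 for mean maturation and 0.33 for mean age. With array weights ZP2 read -0.60 for adult maturation and 1.85 for interaction. ZP3 read 0.47 for age at MII, 1.90 for prepubertal maturation, 3.14 for interaction and 0.32 for mean maturation. ZP4 read -1.01 for age at GV and 0.67 for interaction. Probe sets called were 1 for age at GV, 1 for age at MII, 96 for adult maturation, 5 for prepubertal maturation and 855 for mean maturation. With the letter b as a covariate ZP2 read -2.55 for adult maturation, -2.56 for prepubertal maturation and -2.56 for mean maturation. ZP4 read -1.29 for adult maturation, -3.28 for prepubertal maturation and -2.29 for mean maturation. Against the median of the oocyte list the maturation change of the ratio was 0.33 for ZP2 minus growth factors. No filter, a stricter filter, fitting only the groups compared and no intensity trend turned no direction.

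Leaving out 1 array at a time, the lone array of a reduced group being assumed to vary like the others, gave these ranges. ZP2 ran from -3.81 to 1.36 for age at GV, -3.02 to 0.089 for age at MII, -1.26 to 1.63 for adult maturation, -2.82 to 2.50 for prepubertal maturation, -3.30 to 2.03 for interaction, -1.17 to 1.49 for mean maturation and -2.88 to -0.29 for mean age, and from -1.31 to -0.74 for mean maturation over the 9 arrays. ZP3 ran from -2.94 to -0.066 for age at GV, -4.15 to 0.90 for age at MII, -1.47 to 0.54 for adult maturation, -2.80 to 2.26 for prepubertal maturation, -2.66 to 2.40 for interaction, -1.46 to 1.06 for mean maturation and -2.82 to -0.29 for mean age, and from -1.05 to 0.42 for mean maturation over the 9 arrays. ZP4 ran from -2.65 to 3.05 for age at GV, -3.14 to 0.28 for age at MII, -0.64 to 3.74 for adult maturation, -2.88 to 2.29 for prepubertal maturation, -4.96 to 0.73 for interaction, -0.40 to 2.19 for mean maturation and -2.28 to 0.57 for mean age, and from -0.95 to -0.37 for mean maturation over the 9 arrays. Ratio changes ran from 0.035 to 1.69 for ZP2 minus ZP3, -0.87 to -0.12 for ZP2 minus ZP4, -2.22 to -0.81 for ZP3 minus ZP4, -0.68 to 0.091 for ZP2 minus growth factors, -1.67 to -0.72 for ZP3 minus growth factors and 0.093 to 0.71 for ZP4 minus growth factors. Without prepubertal MII replicate 1, 9 probe sets were called in mean maturation, and 0 without any other array.

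With the replicate block within each age, 5 probe sets were called in adult maturation and 15 in mean maturation, none a zona gene, and the block changed no other call. In the exact permutation tests that keep the prepubertal pairs, p for ZP2, ZP3 and ZP4 was 0.025, 0.825 and 0.225 over the 9 arrays and 0.662, 0.688 and 0.613 over 12, on the same side of 0.05 as without the pairs. Against the 9 arrays as deposited, median centring turned prepubertal maturation of ZP4 to 0.12 and of ZP2 to 0.0085. The block across all groups called 0 in the age comparisons.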
